A study of Mus musculus with 6 samples.

Results

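The 10 genes described here mark the main neurons of the cerebellum, and they were measured in hippocampus. They were taken by name: Pcp2, Car8, Calb1, Pvalb and Itpr1 as Purkinje cell genes, and Cbln1, Cbln3, Zic1, Zic2 and En2 as genes of the granule cell lineage. They make up 10 of the 52550 genes listed in the count files, and all 10 passed the filter on low counts together with 18795 genes in all. The list was selected on measured values, because earlier results from these same libraries had shown cerebellar genes at high levels in 1 of them. The levels below are therefore a description and are given without p-values; the tests over the whole table included these genes with all others.

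The study compared hippocampal RNA from 3 TBI mice with that from 3 sham mice, with 1 library per mouse. All were male C57BL / 6 mice killed 24 h after surgery. The TBI mice received a controlled cortical impact, a piston blow to the exposed cortex, and the sham mice had the operation without the impact. The hippocampus was freed by hand after the overlying cortex had been taken away, so a library reports whatever tissue was collected with it. Libraries carry the group name and the mouse number, as in Sham1 or TBI3. The summed count per library ranged from 31630936 in TBI2 to 41771872 in Sham1. Levels are given as CPM, the count of a gene relative to the library total after scaling by edgeR's TMM method, so that libraries of unequal depth can be compared.

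Purkinje cells are the large inhibitory output neurons of the cerebellar cortex. Their dendrites receive parallel fibres from granule cells, the small and very numerous excitatory neurons of the same cortex, and strong synaptic input opens calcium stores in the dendrite through the inositol trisphosphate (IP3) receptor. Neither cell type is part of the hippocampus. Several of the 10 genes nevertheless have known hippocampal sources: Calb1 is made by dentate granule cells and CA1 pyramidal neurons, Pvalb by fast-spiking interneurons, and Itpr1 by pyramidal neurons. Pcp2, Cbln3 and En2 are far more restricted to the cerebellum, and Zic1, Zic2 and Cbln1 are also used outside it, for example in the thalamus or the septum.

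Upstream sequence from RefSeq on GRCm38.p6 was at hand for 4 of the 10 genes, and it is shown because these genes were high in the same library. The other genes, Car8, Calb1, Itpr1, Cbln1, Zic2 and En2, are named only. Each line reads 5' to 3' on the gene's own strand and was trimmed so that no annotated exon of GENCODE vM21 is included, except that the Pcp2 line is the surroundings of 1 motif. Capitals mark the motifs found among the 4 searched on both strands. These were AGGTCA, the half-site bound by ROR nuclear receptors, the TATA box TATAAA, the GC box spelled GGGCGG, and for the CAAT box the letters CCAAT.
Pcp2, chr8:3625542-3625571, minus strand: aaaggccttctcAGGTCAgagaccaggaga
Cbln3, chr14:55884393-55884506, minus strand: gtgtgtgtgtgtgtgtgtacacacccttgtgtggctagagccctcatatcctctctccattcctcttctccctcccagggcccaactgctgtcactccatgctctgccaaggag
Zic1, chr9:91365811-91366018, minus strand: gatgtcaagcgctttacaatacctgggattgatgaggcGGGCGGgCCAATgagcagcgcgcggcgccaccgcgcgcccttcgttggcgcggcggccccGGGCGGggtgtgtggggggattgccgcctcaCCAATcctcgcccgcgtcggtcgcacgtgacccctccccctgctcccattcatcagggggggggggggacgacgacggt
Pvalb, chr15:78206401-78206650, minus strand: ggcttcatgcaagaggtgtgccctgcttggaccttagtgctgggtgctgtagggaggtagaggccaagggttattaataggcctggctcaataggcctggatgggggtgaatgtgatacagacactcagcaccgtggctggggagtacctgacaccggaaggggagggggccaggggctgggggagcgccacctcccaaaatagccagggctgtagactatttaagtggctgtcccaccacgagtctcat
The AGGTCA of Pcp2 began 12 bases before the annotated start of its first RefSeq window. This motif was found in 16.26% of 32851 windows of 300 bases over all genes, the TATA box in 13.62%, the GC box in 35.66% and the CAAT box in 37.41%. The printed stretches of Cbln3 and Pvalb held none of the 4 motifs. A match is a stretch of letters and was not tested as a binding site.

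Some libraries also stood apart from the others of their group in genes other than the 10, on lists chosen with earlier results known. TBI1 carried 12 of 12 striatal genes at their highest level, with a summed level of 6056 CPM against 278 to 372 CPM in the other libraries. Among all 18795 genes tested TBI1 was the highest library for 3705. Sham2 went against its label in genes of reactive glia and injury: Gfap, the astrocyte filament protein, was at 4055 CPM there against 541 to 1478 CPM elsewhere, and Hmox1, which degrades heme, was at 84.8 CPM against 5.04 to 23.2 CPM. Sham2 was the highest library for 6 of the 10 genes of that list and the lowest for Mbp, a myelin gene, and the summed level of the list, 6541 CPM, was within the 5882 to 8020 CPM of the other libraries. The summed level of 8 choroid plexus genes was 54.6 CPM in Sham2, 243 CPM in TBI1 and 261 CPM in TBI3, and 2039 to 2375 CPM in the other 3 libraries. The summed level of 11 hippocampal neuron genes was 562 CPM in TBI1 and 600 CPM in TBI3 against 910 to 1218 CPM in the rest.

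**Figure D1:**
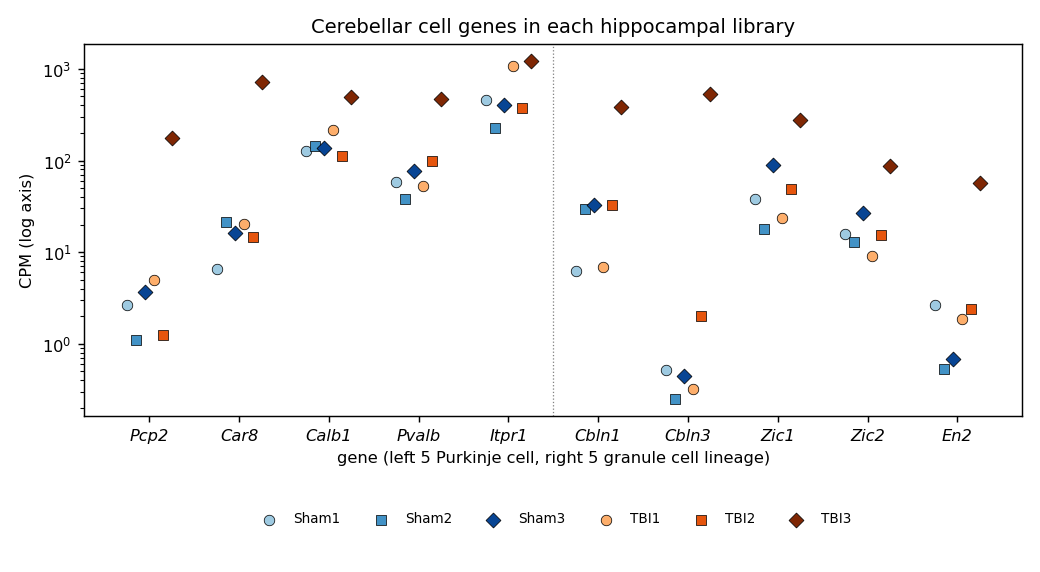
CPM on a log axis of each of the 10 genes, with 1 point per library, sham in blue and TBI in orange to brown; the 5 Purkinje cell genes are left of the dotted line and the 5 granule cell lineage genes right of it. TBI3, the dark brown diamond, is the highest point of every gene, and only for Itpr1 does another library, TBI1, come close to it.

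All 10 genes had their highest level in a single library, TBI3, while TBI1 and TBI2 lay among or near the sham libraries for most of them. Among all genes tested TBI3 was the highest library for 19.8%, and it exceeded 3 times the highest other library for 0.532%, which is 100 genes. Of the 10 genes, 8 exceeded that limit, the exceptions being Itpr1 and Calb1 at 1.15 and 2.29 times. Just inside it were Zic1 at 3.11 and Zic2 at 3.22 times the highest other library. Since the list was chosen for this library, these counts describe the choice.

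Pcp2 encodes a small regulator of G proteins that is a classic Purkinje cell marker. It was at 2.64, 1.10 and 3.65 CPM in Sham1, Sham2 and Sham3, at 4.95 CPM in TBI1, at 1.23 CPM in TBI2 and at 177 CPM in TBI3. TBI3 held 96.6% of the summed level of the 3 TBI libraries, and TBI2 was below Sham1 and Sham3. Of the exonic bases of Pcp2, 51.48% are shared with Pet100, a gene on the opposite strand, and the strandedness of the libraries was not stated, so reads from the 2 genes over those bases cannot be told apart. Pet100, a factor for assembly of mitochondrial cytochrome oxidase, was at 22.3 to 30.1 CPM in the other libraries and at 36.1 CPM in TBI3.

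Car8 encodes a carbonic anhydrase relative without enzyme activity that binds the IP3 receptor. Its level was 6.59, 21.4 and 15.99 CPM in the sham libraries, 20.4 CPM in TBI1, 14.7 CPM in TBI2 and 716 CPM in TBI3. The 5 libraries other than TBI3 lay within 3.25-fold of each other, and TBI3 was 33.4 times the highest of them, Sham2. Itpr1, the IP3 receptor itself, behaved differently: it was at 458, 226 and 399 CPM in the sham libraries, at 1067 CPM in TBI1, at 379 CPM in TBI2 and at 1224 CPM in TBI3. Both TBI1 and TBI3 were above every sham library, while TBI2 was below Sham1 and Sham3. Among 18795 tested genes Itpr1 ranked 1737 by the ratio of TBI3 to the highest other library.

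The calcium buffers Calb1 (calbindin) and Pvalb (parvalbumin) had hippocampal levels well above 0 in every library. Calb1 was at 128, 143 and 137 CPM in the sham libraries, at 215 CPM in TBI1, at 111 CPM in TBI2 and at 493 CPM in TBI3. The sham libraries were close together for it, at 136 ± 7.28 CPM (SD, n = 3), with TBI2 below all of them and TBI1 above. Pvalb was at 58.2, 38.5 and 77.5 CPM in the sham libraries, at 53.1 CPM in TBI1, at 98.0 CPM in TBI2 and at 471 CPM in TBI3, which was 4.80 times the next library, TBI2. Here TBI1 fell within the sham range.

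Cbln1 and Cbln3 encode secreted proteins of the C1q family that granule cells release at parallel fibre synapses, where Cbln1 bridges neurexin and the Purkinje cell receptor GluD2. Cbln1 was at 6.22, 29.9 and 33.0 CPM in the sham libraries, at 6.96 CPM in TBI1, at 32.4 CPM in TBI2 and at 385 CPM in TBI3. Apart from TBI3 the libraries formed a low pair, Sham1 and TBI1, and a higher trio with 1 TBI library in each. Cbln3 was nearly silent outside TBI3, at 0.519, 0.249 and 0.443 CPM in the sham libraries, 0.318 CPM in TBI1 and 2.02 CPM in TBI2, and at 534 CPM in TBI3. Its deposited counts were 21, 10, 17, 13, 64 and 18992 in the same order. TBI3 was thus 264 times TBI2 for Cbln3, the second largest such ratio of all genes tested.

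Zic1 and Zic2 encode zinc finger transcription factors of granule cell precursors and of several other dorsal lineages. Zic1 was at 38.2, 17.8 and 88.8 CPM in the sham libraries, at 23.6 CPM in TBI1, at 48.6 CPM in TBI2 and at 277 CPM in TBI3. Zic2 was at 15.95, 13.0 and 27.0 CPM in the sham libraries, at 9.11 CPM in TBI1, at 15.5 CPM in TBI2 and at 86.7 CPM in TBI3. For both genes Sham3 was the next library after TBI3, and TBI1 was the lowest library for Zic2. En2, an engrailed homeobox gene of the midbrain and cerebellum, was at 2.62, 0.523 and 0.677 CPM in the sham libraries, at 1.86 CPM in TBI1, at 2.40 CPM in TBI2 and at 56.8 CPM in TBI3. Sham1 was above both TBI1 and TBI2 for it, so that the groups overlapped here as for each of the other 9 genes.

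The genes lie on 7 chromosomes of GRCm38, and their positions in GENCODE vM21 show no shared locus for most of them. Car8 (chr4:8143362-8239041, minus strand) and Calb1 (chr4:15881264-15908064, plus strand) are on 1 chromosome, as are Pcp2 (chr8:3623371-3625545, minus) and Cbln1 (chr8:87468405-87472609, minus), and Cbln3 (chr14:55878913-55884392, minus) and Zic2 (chr14:122475435-122479852, plus). En2 is at chr5:28165694-28172166 (plus), Itpr1 at chr6:108213096-108551109 (plus), Zic1 at chr9:91358058-91365810 (minus) and Pvalb at chr15:78191114-78206400 (minus). All are protein-coding, and CPM was taken over all their exons, untranslated parts included. Gm2694, a long noncoding RNA on the opposite strand that overlaps the span of Cbln1 but shares none of its exonic bases, was at 2.49 to 4.04 CPM in the other libraries and at 23.2 CPM in TBI3. Zic4, which shares 60 exonic bases with Zic1 on the opposite strand, was at 2.03 to 10.8 CPM and at 18.8 CPM in TBI3.

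To set genes against each other, levels were divided by length of exon. That length counts every annotated exonic base of a gene, 4866 for Cbln3 and 1828 for Pcp2. The transcripts present need not hold all of these bases, so the order of genes can depend on the annotation. In TBI3 the level per kilobase of exon was 452 CPM for Pvalb, 186 CPM for Car8, 127 CPM for Cbln1, 109.7 CPM for Cbln3, 101.7 CPM for Calb1 and 97.1 CPM for Pcp2. Itpr1 followed at 66.8, Zic1 at 48.6, Zic2 at 30.1 and En2 at 16.1 CPM per kilobase. Each of these is 1 library, so no spread can be given for neighbours in this order. After the median of the other 5 libraries was subtracted, the order of the first 4 genes was the same, with 396, 182, 117 and 109.6 CPM per kilobase, and Pcp2 at 95.6 moved ahead of Calb1 at 73.4.

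The fold change between the groups rested on that library for most of the genes. With all 6 libraries the log2 fold change of TBI over sham was positive for 10 of 10 genes, with a median of 2.23 against 0.0091 over all genes tested. The largest was 8.78 ± 2.87 (SE, n = 3 per group) for Cbln3, with 4.64 ± 1.79 for Pcp2, 4.09 ± 1.58 for Car8 and 3.99 ± 1.52 for En2. Lower values were those of Cbln1 at 2.62 ± 1.40, Pvalb at 1.84 ± 0.798, Itpr1 at 1.30 ± 0.466, Zic1 at 1.27 ± 0.982, Calb1 at 1.01 ± 0.493 and Zic2 at 0.995 ± 0.827. For 8 of the 10 genes, all but Calb1 and Itpr1, the SD of the 3 TBI libraries exceeded their mean. Car8, for example, averaged 14.7 ± 7.497 CPM over the sham group and 250.4 ± 403 CPM over the TBI group (SD, n = 3).

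Without TBI3 the picture was that of 3 sham against 2 TBI libraries. The median log2 fold change of the 10 genes was then 0.29, with 7 above 0 and 3 below it, and over all genes tested it was -0.0039. Pcp2 came to 0.33 ± 0.749, Car8 to 0.26 ± 0.492, Calb1 to 0.26 ± 0.285 and Pvalb to 0.37 ± 0.377 (SE). Cbln1, Zic1 and Zic2 turned negative at -0.24 ± 0.881, -0.43 ± 0.698 and -0.60 ± 0.407. Cbln3 fell to 1.51 ± 0.871, where TBI2 had 64 counts, and En2 to 0.73 ± 0.772, both still positive. Itpr1 moved least, to 0.997 ± 0.499, and its value there came from TBI1, since TBI2 was within the sham range.

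**Figure D2:**
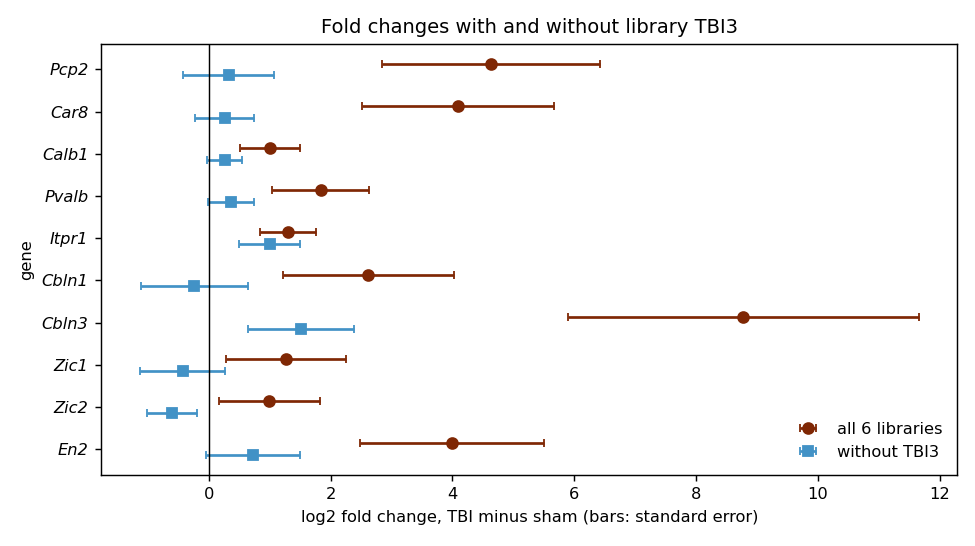
Log2 fold change of TBI over sham for each gene with all 6 libraries (brown circles) and without TBI3 (blue squares), with bars of 1 standard error and the vertical line at 0. Brown points run from 0.995 to 8.78, while blue points run from -0.60 to 1.51.

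The group contrast over the whole table depended on the tool. edgeR's quasi-likelihood test called 0 of 18795 genes (0%) at the thresholds of the study, which ask for a change of more than 1.5-fold with an unadjusted p below 0.05 and an adjusted p below 0.1. The smallest adjusted p was 0.226. At an unadjusted p under 0.05 there were 406 genes higher in TBI, 2.16% of those tested, and 400 lower. DESeq2 called 46 of 28289 genes (0.163%), none of them among the 10. The 28289 are all genes with a fold change, and DESeq2 gave no p for some of them. Gabra6 and Ppp1r17, cerebellar genes with a peak in TBI3, were among those without a p. Whether each of the 10 genes had a p is not given here, so not being called need not mean tested and unchanged. The 3 TBI values were all above the 3 sham values for 897 genes (4.77%), and the groups were separate in either direction for 1922 genes (10.2%). Of the 10 cerebellar genes, 0 had separate groups. With 3 against 3 libraries an exact two-sided permutation test cannot give a p under 0.1.

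The genes moved together across libraries mainly through TBI3. Over the 45 pairs of genes, Pearson's r of log2 CPM across the 6 libraries ran from 0.27 to 0.98 with a median of 0.83, and no pair was negative. Spearman's rho, which uses only the order of the libraries, had a median of 0.49 and was negative in 4 pairs. Without TBI3 the median Pearson's r was 0.043, and 22 of 45 pairs were negative. Leaving out the 2 libraries farthest from the median of the first gene of a pair gave a median of -0.16. The 6 points of each pair share their libraries, so these values describe 6 samples and carry no p.

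Within the other 5 libraries a few pairs still went together. Zic1 and Zic2 had r = 0.87 without TBI3, with Sham3 highest and Sham2 and TBI1 lowest. Pcp2 and Itpr1 had r = 0.82, with TBI1 highest and Sham2 low, and Cbln3 and Pvalb had r = 0.86, with TBI2 highest. Opposite to these, Itpr1 and Cbln1 had r = -0.71. The median was 0.31 over the 10 pairs of granule cell lineage genes, 0.076 over the 10 pairs of Purkinje cell genes and -0.081 over the 25 pairs across the classes. Each is a value over 5 libraries.

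**Figure D3:**
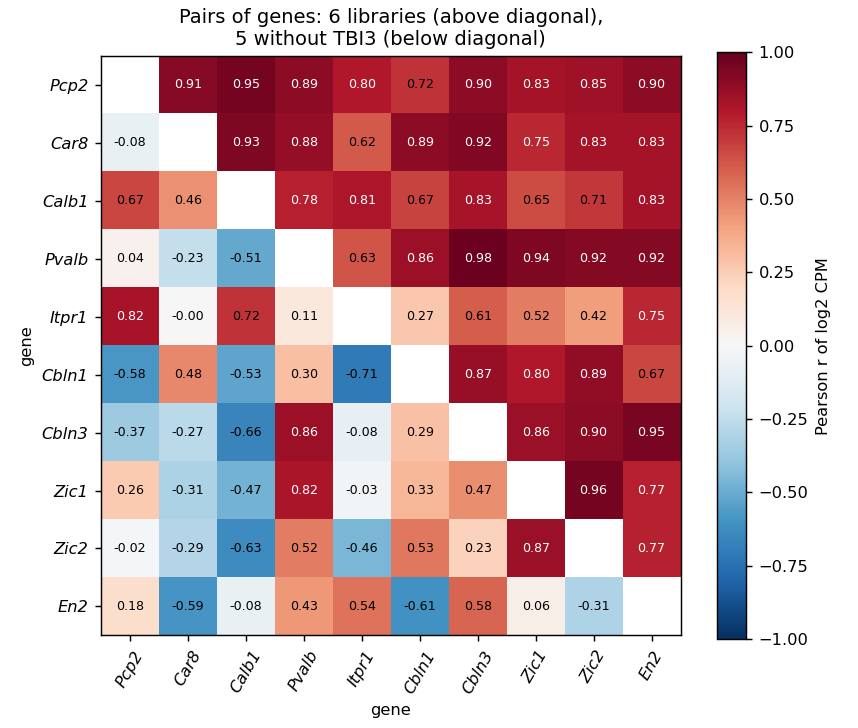
Pearson's r of log2 CPM for each pair of the 10 genes, over 6 libraries above the diagonal and over the 5 libraries without TBI3 below it, coloured from blue (-1) to red (1). Every value above the diagonal is positive, with a median of 0.83, while 22 of the 45 below it are negative.

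Other genes of the same neurons, taken from lists chosen with earlier results of these libraries known, were examined for the same library. Of 36 further cerebellar genes 33 were tested, TBI3 was the highest library for 28 of them, and 15 exceeded 3 times the highest other library. Gabra6, the GABA receptor subunit of mature cerebellar granule cells, had the largest such ratio of all genes tested: it was at 0, 0 and 0.729 CPM in the sham libraries, 0 CPM in TBI1, 0.506 CPM in TBI2 and 200 CPM in TBI3. Ppp1r17, a phosphatase inhibitor of Purkinje cells, was at 0.198 to 0.912 CPM in the other libraries and at 81.2 CPM in TBI3. These marker genes were thus near 0 in 5 libraries, TBI1 and TBI2 included, and present in the sixth.

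Among 16 further Purkinje cell genes 15 were tested. The log2 fold change of TBI over sham was positive for 14 and had a median of 1.47, which was 0.13 without TBI3, with 9 positive and 6 negative. Rgs8, a regulator of G protein signalling, was at 120, 117 and 140 CPM in the sham libraries, 243 CPM in TBI1, 133 CPM in TBI2 and 630 CPM in TBI3. Lhx1 and Lhx5, homeobox genes of Purkinje cells that also mark Cajal-Retzius cells of the hippocampal surface, reached 19.0 and 8.93 CPM in TBI3, with at most 1.14 and 1.17 CPM elsewhere. The summed level of 7 Cajal-Retzius genes, 4 of which are also on the cerebellar lists, was 391 CPM in TBI3 and 98.5 to 174 CPM elsewhere; TBI3 was highest for 5 of them and past the 3-fold limit for 3. Trp73, a marker of Cajal-Retzius cells that is on no cerebellar list, was at 3.91 CPM in TBI3 and 0.748 to 3.65 CPM elsewhere, and the part of these cells in the result was not tested. It lies outside the rule for named genes. Pcp4, a calmodulin regulator also strong in striatum, differed from these in having its peak in TBI1: it was at 250, 121 and 371 CPM in the sham libraries, 1018 CPM in TBI1, 378 CPM in TBI2 and 714 CPM in TBI3. At an unadjusted p under 0.05 by edgeR's quasi-likelihood test there were 7 of the 15 genes, all higher, against the 2.16% of all genes, and none had an adjusted p under 0.982. The list was chosen with earlier results of these libraries known, so this count describes the choice.

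Of 12 further granule cell genes 10 were tested, with 9 positive and a median of 0.83, or -0.14 without TBI3. Cdh15, a cadherin of the granule layer, was at 1.07 to 2.33 CPM in the other libraries and at 15.5 CPM in TBI3. Barhl1, a homeobox gene of granule cell precursors and their offspring, was at 0 to 0.506 CPM and at 5.28 CPM in TBI3. Atoh1, which marks dividing granule cell precursors, had 0 counts in all 6 libraries. Neurod2, which forebrain excitatory neurons also make, went the other way, with 207, 259 and 159 CPM in the sham libraries and 39.1, 150.1 and 138 CPM in TBI1, TBI2 and TBI3. Atoh1 lies outside the rule for named genes and was picked after its values were seen.

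Markers of the remaining cerebellar cells were high in the same library. All 8 such genes were tested, 7 had their highest level in TBI3, and the median log2 fold change was 1.26 with it and -0.27 without it. Gdf10, a growth factor made by Bergmann glia, was at 9.16 to 12.7 CPM in the other libraries and at 52.8 CPM in TBI3. Slc6a5, the glycine transporter of inhibitory interneurons of the cerebellum and brainstem, was at 0 to 0.729 CPM and at 11.3 CPM in TBI3, and Tfap2b, a transcription factor of cerebellar inhibitory neurons, at 0.294 to 3.02 CPM and 17.0 CPM. Genes of the brainstem in TBI3 lay within the range of the other libraries in sum. Tph2, the serotonin-synthesizing enzyme, was at 0.899 CPM in TBI3 and 0.833 to 4.17 CPM elsewhere. The summed level of 15 brainstem genes was 5.70 CPM in TBI3, within the 3.75 to 16.1 CPM of the other libraries. Only 3 of the 15 passed the filter, and 7 had 0 counts in TBI3. The gene Th alone gave 14.8 of the 16.1 CPM, which was the sum in TBI1. So low a sum cannot show whether brainstem RNA was present.

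**Figure D4:**
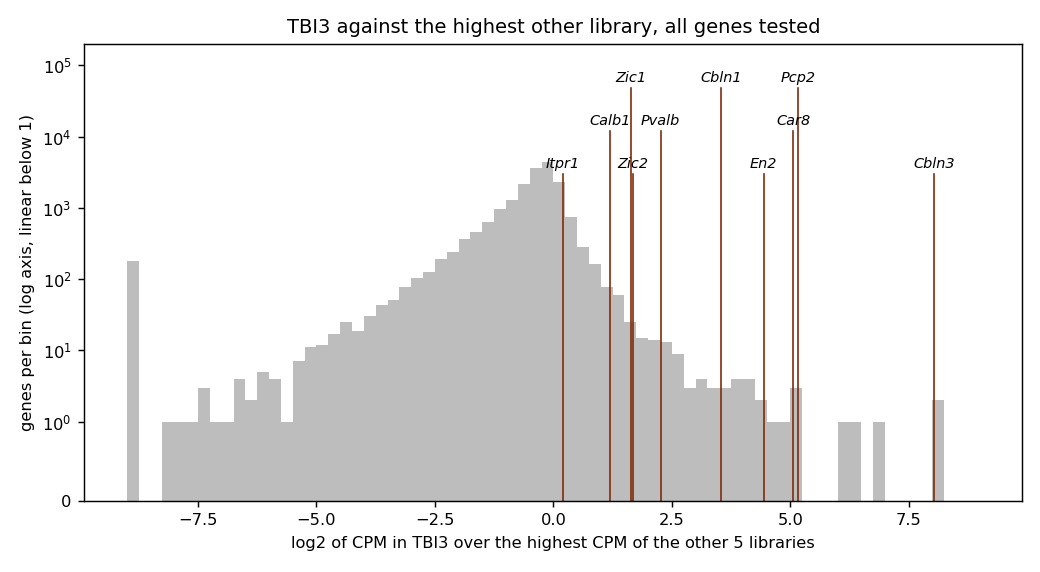
Number of the 18795 tested genes (log axis) by the log2 ratio of CPM in TBI3 to the highest CPM of the other 5 libraries, in bins of 0.25, with genes beyond -9 collected in the leftmost bin. Brown lines mark the 10 genes, from Itpr1 at a ratio of 1.15 in the body of the distribution to Cbln3 at 264 at its far right.

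TBI3 was not set apart by these lists alone. Of the 100 genes over 3 times the highest other library there, 8 were among the 10 genes, 15 were among the other cerebellar genes and 77 were on neither. Those 77 include Fat2, a giant cadherin of cerebellar granule cells, at 149 CPM in TBI3 and at most 1.20 CPM elsewhere, which was picked after its values were seen.

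Genes of the protein families and binding partners of the 10 were looked at next. Of 14 listed 12 were tested, TBI3 was the highest library for 4 of them and none exceeded the 3-fold limit. Nrxn2 and Nrxn3, which encode neurexins, were at 283 and 149 CPM in TBI3 and within 254 to 345 and 130 to 199 CPM elsewhere. Of the Zic family, Zic5 was at 4.36 to 9.61 CPM elsewhere and at 25.1 CPM in TBI3. Itpr3, another IP3 receptor, was at 3.66 to 6.04 CPM elsewhere and at 8.82 CPM in TBI3.

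The pathway that feeds the IP3 receptor was examined in 13 genes, all tested. TBI3 was the highest library for 8 and none exceeded the 3-fold limit, with a median log2 fold change of 0.29, and 0.099 without TBI3. Plcb4, the phospholipase that produces IP3 in Purkinje cells, was at 31.4, 14.7 and 67.1 CPM in the sham libraries, 31.1 CPM in TBI1, 61.2 CPM in TBI2 and 144 CPM in TBI3. Homer3, a scaffold of the same synapse, was at 69.4, 73.3 and 43.9 CPM in the sham libraries, 19.5 CPM in TBI1, 45.2 CPM in TBI2 and 181 CPM in TBI3. The groups overlapped for both genes.

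The libraries next to TBI3 moved with markers of other regions, and these values are given beside the 10 genes because their part in the result was not tested. The summed level of 10 thalamic and habenular genes was 439 CPM in Sham3, 410 CPM in TBI2 and 548 CPM in TBI3, against 77.9 to 174 CPM in the other 3 libraries, and Slc17a6, the vesicular glutamate transporter of thalamus and brainstem, was at 132 CPM in Sham3, 121 CPM in TBI2 and 177 CPM in TBI3. Zic1, Pvalb and, by a small margin, Cbln1 were also higher in Sham3 and TBI2 than in Sham1, Sham2 and TBI1. The rest of the 10 genes were not: Zic2, for example, was at 15.5 CPM in TBI2 and 15.95 CPM in Sham1. The TBI1 level of Itpr1 accompanied the striatal genes of that library: Drd2, the dopamine receptor of striatal projection neurons, was at 185 CPM in TBI1 and at 2.30 to 5.23 CPM elsewhere. In TBI3 the striatal sum was 372 CPM. In the summed level of the 5 Purkinje cell genes TBI1 stood at 1361 CPM and TBI3 at 3081 CPM, against 430 to 654 CPM elsewhere. In that of the 5 granule cell lineage genes TBI1 was the lowest at 41.9 CPM and TBI3 the highest at 1338 CPM.

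**Figure D5:**
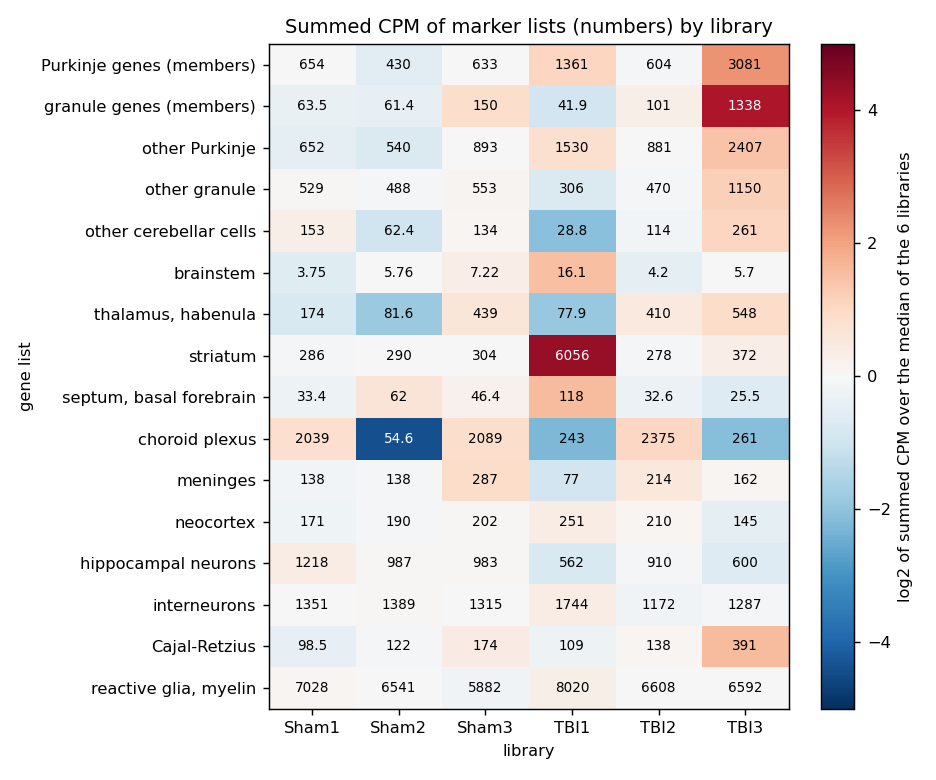
Summed CPM (numbers) of each gene list, in rows, by library, in columns, coloured by the log2 ratio to the median of the 6 libraries from blue (lower) to red (higher). The top 5 rows, all cerebellar, have their highest value in TBI3, while striatal genes peak in TBI1 at 6056 CPM and brainstem genes are at 5.70 CPM in TBI3.

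In a bulk library, fewer or more cells of a type and less or more RNA per cell cannot be told apart. With 1 TBI library carrying the levels, tissue composition of that sample and the injury cannot be told apart for the 8 genes past the 3-fold limit. Measured directly, the 2 other TBI libraries had 4.95 and 1.23 CPM of Pcp2 and 0.318 and 2.02 CPM of Cbln3, against up to 3.65 and 0.519 CPM in sham.

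Genes outside the list with the most similar course over the 6 libraries were found by correlating log2 CPM with the mean standardized level of the 5 genes of each class. For the Purkinje cell class these were Sbk1 (r = 0.996), Shisa8 (0.9904), Rgs8 (0.989), 9330118I20Rik (0.987) and Gm15747 (0.984). For the granule cell lineage class they were Nrep (r = 0.998), Khnyn (0.995), Atp5b (0.993), Uncx (0.992) and Kcnc1 (0.991). The highest in each class kept a close relation in the 5 libraries without TBI3, with r = 0.966 for Sbk1 and 0.986 for Nrep. Their differences varied in size: Atp5b was at 1717 CPM in TBI3 and 1496 to 1544 CPM elsewhere, while Uncx, a homeobox gene, was at 9.16 CPM in TBI3 and at most 0.664 CPM elsewhere. Khnyn is the next gene beside Cbln3, on the opposite strand, and was at 25.7 CPM in TBI3 and 9.55 to 13.0 CPM elsewhere. These correlations were the highest among all tested genes over 6 libraries, so they describe the ranking only.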

How the data were processed

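Hippocampal RNA from 3 sham and 3 TBI mice was sequenced with 1 library per mouse, and groups were taken from the sample labels. Per the submitters' processing notes the authors used FastQC, HISAT2, StringTie and GRCm38, with versions not given in the sources used here. The authors deposited estimated counts for each gene, all whole and not normalized, which were used unchanged. The deposited counts take the value 4 more often (5109 times) than 3 (2325 times), hence counts do not stand for single reads and no counting interval is given. Library totals were 31630936 to 41771872 counts. Gene identifiers were matched to GENCODE vM21 (52403 matched, 147 not).

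R 4.3.3 was used. Counts were filtered with edgeR 4.0.16 (filterByExpr by group) and scaled by TMM. Differences were tested with its quasi-likelihood test, with p-values adjusted by Benjamini-Hochberg over all genes tested. DESeq2 1.42.0 was an alternative. log2 CPM had a prior count of 2. Both fits were tested on simulated data. The p-values measure the spread between these mice. The members, the gene lists and the tests were chosen with earlier results of these data known. Named genes were the 10 members, the 3 most abundant and up to 3 most variable genes of each other list, called listed genes, and the 5 genes most like each class; genes outside this rule are Pet100 and Gm2694, named because they overlap a member, and those marked in the text. Alternatives were DESeq2, its size factors, library totals, no filter, a replicate block and leaving out each library. Sequences are from RefSeq. The values of some listed genes are not reported here.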

Additional observations from a re-analysis of the deposited data

How the results depend on the processing

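The positive log2 fold changes of the 10 genes held their sign under DESeq2, its size factors, library totals, a minimum of 1 count and the replicate block, and in each fit that left out a library other than TBI3. Without TBI3 Cbln1, Zic1 and Zic2 reversed to -0.24, -0.43 and -0.60; their highest values with 1 library left out were 3.18 (without TBI1), 2.04 (without Sham3) and 1.46 (without TBI1). The median log2 fold change of the 10 genes was 2.23 and ranged from 0.29 (without TBI3) to 2.74 (without TBI1) when 1 library was left out. The median pair correlation was 0.83 and ranged from 0.043 (without TBI3) to 0.91 (without TBI1). The number of the 10 genes with separate groups was 0 and ranged from 0 to 3: En2 without Sham1, Pvalb and Cbln3 without TBI1, and Pcp2, Calb1 and Itpr1 without TBI2. Over all genes tested the groups were then separate for 18.1%, 22.8% and 21.4%, and for 10.2% with 6 libraries, so these counts are not a result about the 10 genes. edgeR's quasi-likelihood test called 0 genes, and 0 to 1 when 1 library was left out (1 without TBI1), while DESeq2 called 46, of which 2 were listed genes, Six3 among them. The cause of these differences was not tested. Same-numbered sham and TBI libraries did not deviate together (correlations of -0.0996, -0.0650 and 0.153), so the numbers were not read as pairs; with the replicate block 0 genes were called, the median of the 10 genes was 1.24 and Cbln3 came to 4.37. With 3 mice per group, differences inside the spread between mice could not be detected.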
